A study of Mus musculus with 12 samples.

Results

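The renin-angiotensin system is the hormone cascade that sets vascular tone, blood pressure and sodium balance. Here 6 of its genes were followed in mouse kidney, chosen by name among the 33188 genes of the expression table: Agt, Ren1, Ace, Agtr1a, Mme and Enpep. The 6 genes each matched a single row, and all had enough counts to be tested among 19772 tested genes. RNA came from kidneys of wild-type mice in 3 groups of 4 libraries. XZSW was the group named for Xin-Zi-Sheng-Wan decoction, an herbal preparation evaluated in the hyperuricemia model. HUA was the hyperuricemia model, induced with potassium oxonate, which blocks the urate-degrading enzyme uricase, and hypoxanthine, a purine precursor of urate. CTL was the control group. The labels give no strain, age, dose or duration, and they do not state separately that XZSW mice received the model agents. Whether the 4 libraries of each group represent different mice is not stated, and the tests below therefore measure library-to-library spread that may be technical. The study asked whether the decoction lessens renal injury in this model.

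In this cascade angiotensinogen (Agt), the precursor, is cut by renin (Ren1), an aspartic protease released by juxtaglomerular cells, to give angiotensin I. Angiotensin-converting enzyme (Ace), a peptidyl-dipeptidase of endothelium and of the proximal tubule brush border, trims angiotensin I to angiotensin II, which acts mainly through the type 1 receptor (Agtr1a). Neprilysin (Mme) and aminopeptidase A (Enpep), both abundant on the brush border, shorten angiotensin peptides further. Circulating angiotensinogen comes mainly from liver, and the proximal tubule also makes it.

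The peptide that names the cascade is encoded by Agt at chr8:124564450-124564479 on the minus strand of GRCm38, in exon 2 of the GENCODE M21 transcript. The stretch is shown because renin and Ace act on its product. Capitals mark the codons that remain in angiotensin II, and lower case marks those of the dipeptide removed by Ace.
Agt, angiotensin I codons: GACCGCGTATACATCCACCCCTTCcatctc

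RefSeq promoter windows of 250 bases before the start (GRCm38.p6) were found for 5 of the 6 genes, Agtr1a being the one without. They are shown for Agt, the gene with the largest change, for Ace and Enpep, which both fell in HUA, and for Ren1. Capitals mark TATAAA on either strand, which reads TTTATA where it lies on the other strand.
Agt promoter, chr8:124569707-124569956, strand −: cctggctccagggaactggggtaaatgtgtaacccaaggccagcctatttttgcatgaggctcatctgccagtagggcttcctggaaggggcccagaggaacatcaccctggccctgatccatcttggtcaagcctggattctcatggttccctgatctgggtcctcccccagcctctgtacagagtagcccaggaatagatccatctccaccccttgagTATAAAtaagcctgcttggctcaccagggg
Ren1 promoter, chr1:133350424-133350673, strand +: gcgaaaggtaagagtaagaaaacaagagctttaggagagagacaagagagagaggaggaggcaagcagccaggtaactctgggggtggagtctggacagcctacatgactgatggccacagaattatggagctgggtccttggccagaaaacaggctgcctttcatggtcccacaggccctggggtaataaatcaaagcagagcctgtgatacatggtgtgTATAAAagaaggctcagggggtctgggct
Ace promoter, chr11:105967698-105967947, strand +: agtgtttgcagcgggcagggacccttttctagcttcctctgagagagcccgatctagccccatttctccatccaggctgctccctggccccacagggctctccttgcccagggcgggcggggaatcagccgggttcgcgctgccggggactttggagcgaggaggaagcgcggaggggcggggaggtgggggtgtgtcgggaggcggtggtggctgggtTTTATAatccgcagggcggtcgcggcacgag
Enpep promoter, chr3:129332750-129332999, strand −: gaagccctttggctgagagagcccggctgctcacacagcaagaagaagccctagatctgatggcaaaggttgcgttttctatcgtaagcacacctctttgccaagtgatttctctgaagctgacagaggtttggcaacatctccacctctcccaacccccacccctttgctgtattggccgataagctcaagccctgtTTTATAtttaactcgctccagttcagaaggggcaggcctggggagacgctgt
These letters, the core of a TATA box, stood near the start in each of the 4 windows, on the gene's strand in Agt and Ren1 and on the other strand in Ace and Enpep. They occurred in 12.4% of 32851 RefSeq windows of the same length, and in none of the windows of Mme. RefSeq gives Ace a further start inside the gene, known as the germ-cell start, whose window lacked the letters. Counts per gene cannot tell the transcripts from the different starts apart.

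Agt (ENSMUSG00000031980, chr8:124556534-124569706, minus strand) was far higher in HUA than in the other groups, and near the control level in XZSW. Levels are given in CPM (counts scaled to a common library depth) with TMM factors, which centre most genes between libraries. Agt stood at 1.20, 0.690, 2.45 and 1.14 CPM in XZSW1 to XZSW4, at 21.0, 5.25, 11.8 and 30.7 CPM in HUA1 to HUA4, and at 1.37, 1.13, 0.345 and 1.94 CPM in CTL1 to CTL4. The lowest HUA library lay above every XZSW and every CTL library, while XZSW and CTL overlapped. Summed over 4 libraries this was 364 counts in XZSW, 5133 in HUA and 263 in CTL. Agt rose in HUA against CTL by 3.83 on the log2 scale (SE 0.614), which is 14.3-fold (edgeR quasi-likelihood test with Benjamini-Hochberg adjustment, adjusted p = 0.000777). It fell in XZSW against HUA, with a log2 change of -3.65 (SE 0.606), or 12.5-fold lower (edgeR adjusted p = 0.00242). Between XZSW and CTL the log2 change was 0.18, with a 95% interval of -1.04 to 1.41 (edgeR adjusted p = 0.881). In whole-kidney RNA, more cells that express a gene and more RNA per cell cannot be told apart.

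Library composition differed within groups and is set beside these values. GC-rich genes read higher in XZSW3, XZSW4 and every HUA library except HUA1, by 0.227 to 0.352 on the log2 scale for each 10% of GC, against the CTL mean. In the other 7 libraries, HUA1 among them, these slopes were -0.0655 to 0.0626. Within the 5 libraries of high slope, Agt stood at 2.45 and 1.14 CPM in XZSW against 5.25, 11.8 and 30.7 CPM in HUA. Among those of low slope it stood at 1.20 and 0.690 CPM in XZSW1 and XZSW2, at 21.0 CPM in HUA1 and at 0.345 to 1.94 CPM in CTL. With the split as a term of the fit, the Agt log2 change was 3.64 in HUA against CTL and -3.63 in XZSW against HUA (edgeR adjusted p = 0.00409 and 0.00352). All CTL libraries were of low slope, so this term rests on the HUA and XZSW libraries.

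**Figure D1:**
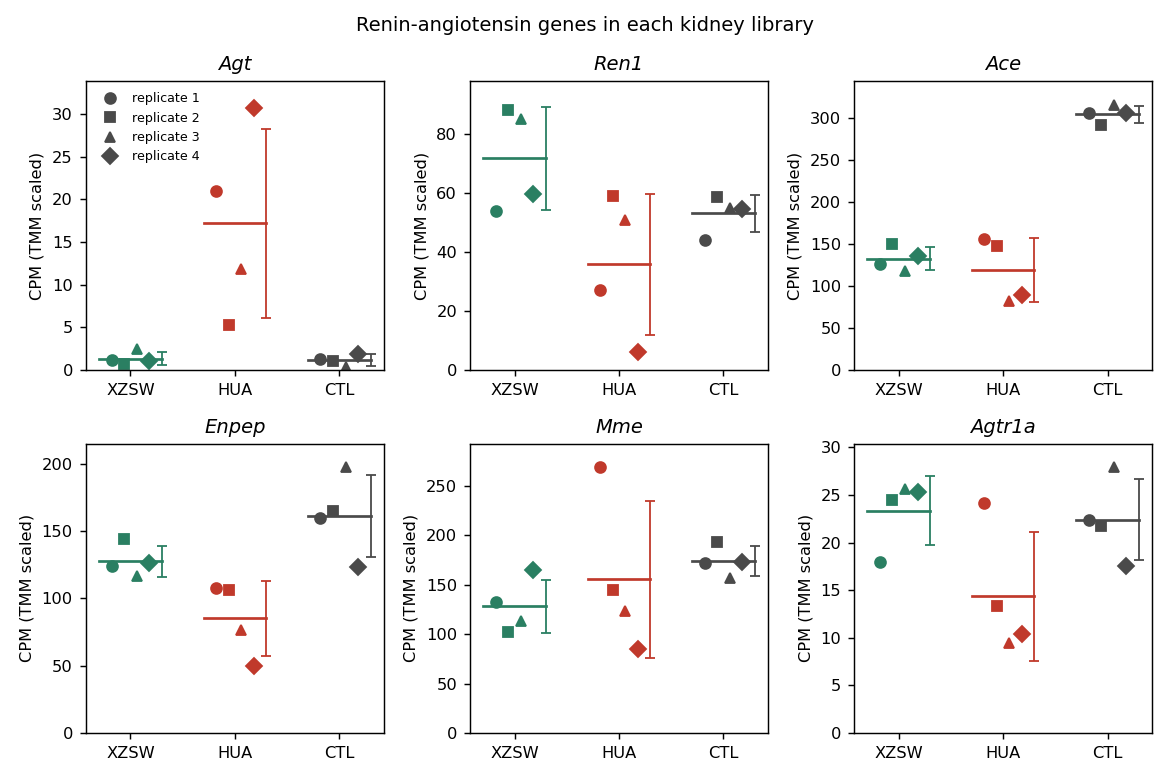
Level of each of the 6 genes in every library, in CPM on a linear axis from 0 with 1 panel per gene and XZSW, HUA and CTL from left to right. Symbols mark replicate numbers, lines the group means and bars 1 SD on either side (n = 4). Agt is at 5.25 CPM or more in all HUA libraries and at 2.45 CPM or less in all others, Ace is at 156.5 CPM or less in XZSW and HUA and at 291.8 CPM or more in CTL, and the 4 HUA values of Ren1 spread from 6.33 to 59.2 CPM.

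Ren1 (ENSMUSG00000070645, chr1:133350510-133360325, plus strand) did not pass the test in any comparison. It stood at 54.1, 88.2, 85.2 and 59.9 CPM in XZSW1 to XZSW4, at 27.1, 59.2, 51.0 and 6.33 CPM in HUA1 to HUA4, and at 44.2, 58.8, 55.1 and 54.6 CPM in CTL1 to CTL4. In CPM HUA2 and HUA3 lay near the CTL values and HUA1 and HUA4 lay below them. There 3 of 4 XZSW libraries lay above every HUA and CTL library. In FPKM (fragments scaled by transcript length and library depth) HUA2 and HUA3, at 35.6 and 31.69, lay above every CTL library. In that measure XZSW4, at 34.11, lay below HUA2. The log2 change was -0.57 (SE 0.457) in HUA against CTL, 1.00 (SE 0.46) in XZSW against HUA and 0.43 (SE 0.456) in XZSW against CTL (edgeR adjusted p = 0.395, 0.164 and 0.617). HUA4 had the lowest value, and without it the log2 change in HUA against CTL was -0.19. The 95% intervals, -1.55 to 0.42 for HUA against CTL and 0.00834 to 1.99 for XZSW against HUA, leave a wide range of sizes. Some mouse strains carry a near-identical copy, Ren2, which was not analysed here, and with the strain not given, how reads of such a copy were counted is unknown.

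Genes known to act on renin cells were counted as background to Ren1. Of 14 tested genes of renin release and of the juxtaglomerular cell, 1 was called higher and 2 lower in HUA against CTL. Among all tested genes 14.9% were higher and 12.8% lower in that comparison. The median log2 change of the 14 was -0.21. Ptger4, a prostaglandin E2 receptor that raises cAMP, rose by 4.12 on the log2 scale (SE 0.508, edgeR adjusted p = 0.000146). Vdr, the vitamin D receptor, and Adcy5, an adenylyl cyclase, fell, with log2 changes of -1.10 and -0.95 (edgeR adjusted p = 0.00399 and 0.00886). The call of Vdr was lost with the GC split as a term, at an edgeR adjusted p of 0.0539, and that of Adcy5 under library-total scaling, at 0.0634. Gja5, the connexin of juxtaglomerular cells, had a log2 change of 0.60 (edgeR adjusted p = 0.0718). It passed without HUA1 (edgeR adjusted p = 0.0343) and under library-total scaling (0.0127). It also passed with DESeq2 (adjusted p = 0.03) and with limma on log2(FPKM + 1) and log2(FPKM + 0.1) (0.0157 and 0.0175). With the GC split as a term the Gja5 change was 0.28 (edgeR adjusted p = 0.474). In XZSW against HUA 3 of the 14 rose, where 7.09% of all tested genes were higher and 8.34% lower. In that comparison 1, Ptger4, fell, with a log2 change of -2.68 (edgeR adjusted p = 0.0033). None passed the edgeR test over 12 libraries in XZSW against CTL. There Ptger4 had a log2 change of 1.44 (edgeR adjusted p = 0.0875), and it passed with the GC split as a term, at 1.9 (edgeR adjusted p = 0.0384), with the 8 libraries of the comparison (0.00776), with DESeq2 (0.0179) and without HUA1 or HUA3 (0.0192 and 0.0474).

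Ace (ENSMUSG00000020681, chr11:105967945-105989964, plus strand) was lower than CTL both in XZSW and in HUA. It stood at 126.9, 149.8, 117.6 and 135.5 CPM in XZSW1 to XZSW4, at 156.5, 147.3, 83.0 and 90.0 CPM in HUA1 to HUA4, and at 305.6, 291.8, 316.1 and 305.6 CPM in CTL1 to CTL4. The 8 XZSW and HUA libraries all lay below the lowest CTL library, with the XZSW values inside the HUA range. Ace fell in HUA against CTL, with a log2 change of -1.35 (SE 0.195), or 2.56-fold lower (edgeR adjusted p = 0.000417). It fell in XZSW against CTL too, with a log2 change of -1.20 (SE 0.195), or 2.3-fold lower (edgeR adjusted p = 0.00967). Between XZSW and HUA the log2 change was 0.15, with a 95% interval of -0.26 to 0.57 (edgeR adjusted p = 0.652). The upper bound of that interval is below the size of the gap between HUA and CTL. With the GC split as a term, the log2 changes against CTL were -1.14 in HUA and -1.04 in XZSW (edgeR adjusted p = 0.00467 and 0.0139). An antisense gene, Gm11651, overlaps Ace; the libraries were strand-specific, and whether counting used strand is not given in the sources used here.

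Agtr1a (ENSMUSG00000049115, chr13:30336441-30382867, plus strand) did not pass the test in any comparison over all 12 libraries. It stood at 18.0, 24.4, 25.6 and 25.4 CPM in XZSW1 to XZSW4, at 24.2, 13.4, 9.43 and 10.4 CPM in HUA1 to HUA4, and at 22.4, 21.8, 27.9 and 17.5 CPM in CTL1 to CTL4. HUA1 lay among the CTL and XZSW values and the other 3 HUA libraries lay below both. The log2 change was -0.64 (SE 0.267) in HUA against CTL, 0.70 (SE 0.267) in XZSW against HUA and 0.06 (SE 0.266) in XZSW against CTL (edgeR adjusted p = 0.0922, 0.0949 and 0.92). Without HUA1 the first was -0.98 and the second 1.06 (edgeR adjusted p = 0.0028 and 0.00443), so this library decides both calls. HUA1 is the HUA library of low GC slope, and the part of that difference in the result was not tested. A sense intronic gene, Gm48161, lies within Agtr1a.

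Enpep (ENSMUSG00000028024, chr3:129269175-129332720, minus strand) was lowest in HUA. It stood at 123.9, 143.9, 116.8 and 126.4 CPM in XZSW1 to XZSW4, at 107.9, 106.5, 76.7 and 49.5 CPM in HUA1 to HUA4, and at 159.5, 164.8, 197.3 and 123.4 CPM in CTL1 to CTL4. In CPM the HUA libraries lay below all others, and XZSW overlapped CTL in its lower part. In FPKM HUA1 and HUA2, at 22.85 and 22.55, lay above CTL4, at 21.47. Enpep fell in HUA against CTL, with a log2 change of -0.92 (SE 0.222), or 1.89-fold lower (edgeR adjusted p = 0.00787). With the GC split as a term the log2 change was -0.72 and the call was lost (edgeR adjusted p = 0.0725). In XZSW against HUA the log2 change was 0.58 (SE 0.221, edgeR adjusted p = 0.0928), and it passed the test without HUA1, at 0.70 (edgeR adjusted p = 0.0465). Between XZSW and CTL it was -0.34, with a 95% interval of -0.81 to 0.14. A processed pseudogene, Gm42628, lies on the opposite strand within Enpep.

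Mme (ENSMUSG00000027820, chr3:63241537-63381623, plus strand, as the deposited table gives it) showed no change past the spread. It stood at 132.2, 102.4, 113.7 and 164.5 CPM in XZSW1 to XZSW4, at 269.2, 144.6, 123.6 and 84.7 CPM in HUA1 to HUA4, and at 171.8, 193.3, 156.7 and 173.5 CPM in CTL1 to CTL4. HUA1 held the highest value of the 12 and HUA4 the lowest, and all 3 groups overlapped. The log2 change was -0.16 (SE 0.279) in HUA against CTL, -0.28 in XZSW against HUA and -0.44 in XZSW against CTL (edgeR adjusted p = 0.718, 0.554 and 0.373). The sign of the first turned under library-total scaling, at 0.16, and without HUA4, at 0.07. The sign of the second turned without HUA1, at 0.11.

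In the edgeR test of HUA against CTL, 1 of the 6 genes was called higher and 2 lower, where 14.9% of all tested genes were higher and 12.8% lower. None rose and 1 fell in XZSW against HUA, where 7.09% of tested genes were higher and 8.34% lower. None rose and 1 fell in XZSW against CTL, where 2.72% were higher and 2.27% lower. The same shares over all tested genes stand beside the counts of the gene lists below. The median log2 change over the 6 was -0.60, 0.37 and -0.14 in these comparisons, against 0.06, 0.01 and 0.04 over all tested genes. Scaling by library totals moved the median of all genes by 0.33, -0.17 and 0.16, and changed the split to 5779 higher and 1320 lower in HUA against CTL, 836 and 2714 in XZSW against HUA, and 1221 and 224 in XZSW against CTL. Under TMM the splits were 2950 and 2538, 1402 and 1649, and 538 and 449. Comparisons that share a group are not independent, and XZSW, HUA and CTL each enter a pair of them.

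**Figure D2:**
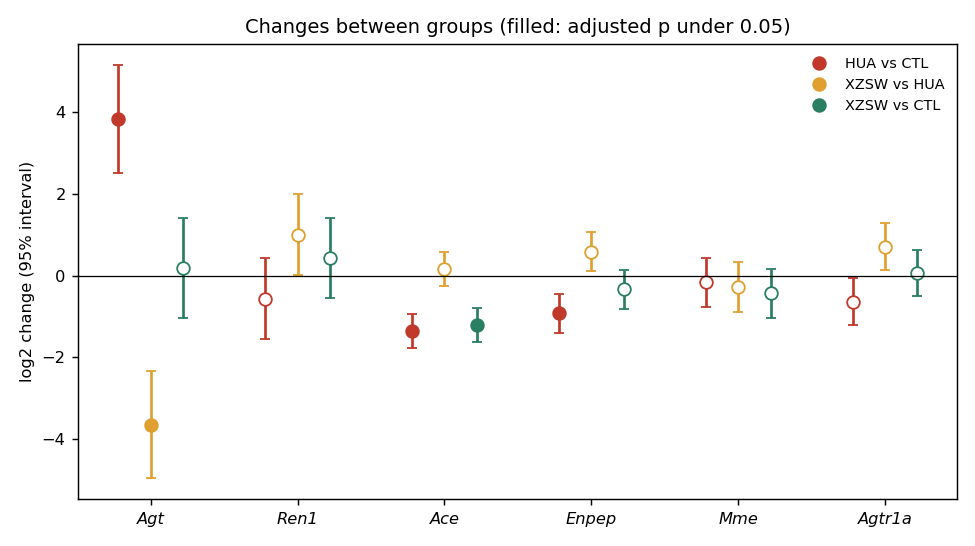
Log2 change of each of the 6 genes in the comparisons of HUA with CTL, XZSW with HUA and XZSW with CTL, shown by colour, with bars for the 95% interval of the edgeR fit and filled symbols where the adjusted p is under 0.05. Agt lies at 3.83 in HUA against CTL and -3.65 in XZSW against HUA, and Ace lies at -1.35 and -1.20 in the comparisons with CTL.

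Levels of different genes were compared per length, in FPKM. In XZSW the order was Ren1 at 40.0 ± 8.99, Enpep at 25.0 ± 0.896, Ace at 23.1 ± 1.32, Mme at 10.3 ± 2.47, Agtr1a at 7.75 ± 1.26 and Agt at 0.677 ± 0.401 FPKM (mean ± SD, n = 4). In HUA it was Ace at 22.6 ± 6.97, Ren1 at 21.9 ± 14.6, Enpep at 18.2 ± 5.79, Mme at 13.5 ± 6.82, Agt at 9.15 ± 5.89 and Agtr1a at 5.16 ± 2.39 FPKM. In CTL it was Ace at 45.6 ± 3.29, Enpep at 27.1 ± 5.24, Ren1 at 25.4 ± 2.95, Mme at 11.9 ± 0.651, Agtr1a at 6.35 ± 1.29 and Agt at 0.498 ± 0.286 FPKM. Ren1 was the highest of the 6 in every XZSW library and Ace in every CTL library. In HUA no neighbours in the order were apart, and Agt, the lowest gene in XZSW and CTL, stood above Agtr1a in 3 of 4 libraries. In XZSW the overlapping neighbours were Enpep with Ace and Mme with Agtr1a, and in CTL only Enpep with Ren1.

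The further enzymes and receptors of the pathway were taken from lists written by function, with 13 peptidases and 6 receptor genes. Of the peptidases 10 were tested, of which HUA had 2 higher and 4 lower than CTL (median log2 change -0.08). In XZSW against HUA 3 rose and 3 fell (median -0.22), and in XZSW against CTL none rose and 1 fell (median -0.06). Of the receptor genes 3 were tested, and 1 fell in HUA against CTL. None of these 3 passed the edgeR test in the other comparisons. With the GC split as a term, 3 of the 13 tested pathway genes were called in HUA against CTL, namely Ctsd, Klk1 and Atp6ap2. By the KEGG column of the deposited table, used as another list of 20 tested genes beside the 6, the counts were 1 up and 7 down, 3 up and 2 down, and 0 up and 1 down.

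Ctsd, the lysosomal aspartic protease cathepsin D, which can release angiotensin I from angiotensinogen in the test tube, was the most changed of these enzymes. It stood at 646.7, 652.8, 763.4 and 716.8 CPM in XZSW1 to XZSW4, at 1310, 1338, 2347 and 2255 CPM in HUA1 to HUA4, and at 636.0, 612.1, 671.6 and 667.7 CPM in CTL1 to CTL4. HUA lay above both other groups in every library. Ctsd rose by 1.49 on the log2 scale in HUA against CTL (SE 0.195, edgeR adjusted p = 0.000228) and fell in XZSW against HUA, with a log2 change of -1.38 (edgeR adjusted p = 0.00112).

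Klk1, tissue kallikrein, which releases kinins that Ace degrades, ran the other way. It stood at 2095, 3151, 3183 and 2321 CPM in XZSW1 to XZSW4, at 821.1, 1747, 837.0 and 1155 CPM in HUA1 to HUA4, and at 2419, 2209, 2316 and 2262 CPM in CTL1 to CTL4. In CPM HUA lay below both other groups in every library. In FPKM HUA2, at 1617, lay above CTL2, at 1528. Klk1 fell in HUA against CTL, with a log2 change of -1.01 (SE 0.233, edgeR adjusted p = 0.00611), or -0.73 by limma on log2(FPKM + 0.1), where the call was lost (limma adjusted p = 0.0524). It rose in XZSW against HUA by 1.24 on the log2 scale (SE 0.234, edgeR adjusted p = 0.00498). Klk1 belongs to a family of near-identical kallikrein genes among which counting may split reads.

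Anpep, aminopeptidase N of the brush border, which shortens angiotensin III, was also lowest in HUA. It stood at 172.0, 223.9, 166.0 and 207.8 CPM in XZSW1 to XZSW4, at 103.3, 136.2, 43.9 and 34.3 CPM in HUA1 to HUA4, and at 222.5, 195.2, 202.2 and 195.7 CPM in CTL1 to CTL4. HUA lay below both other groups, which overlapped. Anpep fell in HUA against CTL, with a log2 change of -1.36 (edgeR adjusted p = 0.0102), while XZSW exceeded HUA by 1.28 on the log2 scale (edgeR adjusted p = 0.0251). The first call was lost with the GC split as a term, at -1.17 (edgeR adjusted p = 0.0763). The second was lost without HUA3, XZSW2 or XZSW4, at 1.06, 1.20 and 1.24 (edgeR adjusted p = 0.0696, 0.0637 and 0.0533), and with the 8 libraries of the comparison alone (edgeR adjusted p = 0.0765).

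Atp6ap2, the (pro)renin receptor and a subunit of the vacuolar proton pump, fell in HUA against CTL. It stood at 84.6, 98.9, 85.0 and 84.4 CPM in XZSW1 to XZSW4, at 81.7, 70.1, 70.7 and 57.6 CPM in HUA1 to HUA4, and at 109.1, 106.1, 111.7 and 113.2 CPM in CTL1 to CTL4. In TMM-scaled CPM the 3 groups did not overlap, with XZSW between HUA and CTL. In FPKM they overlapped, at 30.43 to 32.2 in XZSW, 22.15 to 31.1 in HUA and 30.18 to 35.39 in CTL. The log2 change was -0.65 (SE 0.122) in HUA against CTL, 0.33 in XZSW against HUA and -0.32 in XZSW against CTL (edgeR adjusted p = 0.00192, 0.0838 and 0.139). The first was smaller under library-total scaling, at -0.325 (edgeR adjusted p = 0.0432). By limma on log2(FPKM + 1) it was -0.302 (limma adjusted p = 0.0441). The second passed the edgeR test without HUA1, at an adjusted p of 0.0257.

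Prcp, a carboxypeptidase that shortens angiotensin II, fell in HUA against CTL, with 28.2 to 45.5 CPM in XZSW, 21.4 to 34.5 CPM in HUA and 40.6 to 52.0 CPM in CTL. Its log2 change was -0.82 (edgeR adjusted p = 0.00649), or -0.49 with the GC split as a term (edgeR adjusted p = 0.072). Nln, neurolysin, an endopeptidase that can cut angiotensin I, was lowest in XZSW, with 28.2 to 35.2 CPM in XZSW, 40.6 to 53.4 CPM in HUA and 42.4 to 46.6 CPM in CTL. It fell in XZSW against HUA and against CTL, with log2 changes of -0.54 and -0.49 (edgeR adjusted p = 0.012 and 0.0399). The call against CTL was lost without any 1 of the CTL libraries, for example at an edgeR adjusted p of 0.118 without CTL2, and without XZSW1, XZSW3 or XZSW4.

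Prep, prolyl endopeptidase, stood at 28.4 to 31.7 CPM in XZSW, 34.9 to 61.7 CPM in HUA and 27.3 to 32.3 CPM in CTL. Its log2 change was 0.53 in HUA against CTL and -0.55 in XZSW against HUA (edgeR adjusted p = 0.0325 and 0.0443), and without HUA3 the first was 0.34 (edgeR adjusted p = 0.0566). Ctsa, cathepsin A, a lysosomal carboxypeptidase, stood at 324.2 to 400.8 CPM in XZSW, 235.1 to 275.9 CPM in HUA and 324.7 to 334.1 CPM in CTL. Its log2 change was -0.33 in HUA against CTL and 0.50 in XZSW against HUA (edgeR adjusted p = 0.0454 and 0.0125), and under library-total scaling the first was -0.00298. Apart from that of Ctsa in XZSW against HUA, these calls rest close to the threshold. For Prep the first held in 14 of 21 alternatives and was lost without HUA3 or any 1 CTL library, and the second held in 7. For Ctsa the first held in 3 of 21, and was lost without any 1 CTL or HUA library and without XZSW2, XZSW3 or XZSW4.

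Lnpep, which binds angiotensin IV, Thop1, an endopeptidase of angiotensin I, and Agtrap, which binds the type 1 receptor, did not pass the edgeR test over 12 libraries in any comparison. Thop1 had a log2 change of 0.59 in HUA against CTL and -0.61 in XZSW against HUA (edgeR adjusted p = 0.108 and 0.125). Without HUA1 both passed, at 0.77 and -0.78 (edgeR adjusted p = 0.0347 and 0.0489), as they did with the replicate block (edgeR adjusted p = 0.0227 and 0.0369). The first also passed under library-total scaling, at 0.91 (edgeR adjusted p = 0.0209), and with limma on FPKM, and was 0.16 with the GC split as a term (edgeR adjusted p = 0.738). Mas1, the receptor of the vasodilator branch, was low, at 0.228 to 0.627 CPM in XZSW, 0.282 to 0.546 CPM in HUA and 0.268 to 0.581 CPM in CTL, and did not pass either. The genes under the filter on low counts were Ctsg, Cma1, Cpa3, Agtr1b and Agtr2. Agtr2, the type 2 angiotensin II receptor, had 4 counts in XZSW, 8 in HUA and 6 in CTL. Agtr1b had 0 counts in XZSW and in HUA, which allows up to 0.0114 and 0.0112 CPM over the group, and 4 counts in CTL. Cma1, mast cell chymase, had 4 counts in HUA and 0 in XZSW and CTL, which allows up to 0.0114 and 0.0127 CPM. Ctsg had 12 counts in XZSW and 0 in HUA and CTL, and Cpa3 had 9 in XZSW, 24 in HUA and 4 in CTL. These floors are 3 counts over the group's summed total and cover counting error only. Mrgprd was not analysed here.

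**Figure D3:**
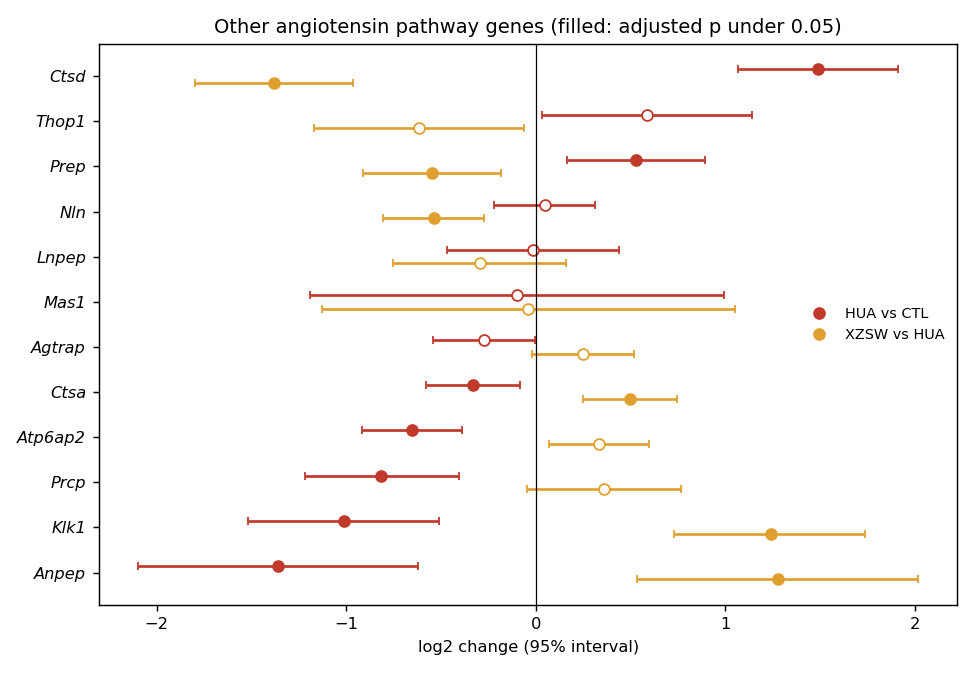
Log2 changes of 12 of the 13 tested pathway genes beside the 6, with HUA against CTL and XZSW against HUA shown by colour, bars for the 95% interval and filled symbols where the adjusted p is under 0.05. Ctsd lies at 1.49 in HUA against CTL and -1.38 in XZSW against HUA, and Klk1 at -1.01 and 1.24.

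Downstream of the cascade, 11 genes of aldosterone and glucocorticoid response were tested. In HUA against CTL none rose and 4 fell (median log2 change -0.40), in XZSW against HUA 3 rose and none fell (median 0.27), and in XZSW against CTL none rose and 1 fell (median -0.20). Hsd11b2, which keeps glucocorticoids off the mineralocorticoid receptor, had a log2 change of -1.25 in HUA against CTL and 2.02 in XZSW against HUA (edgeR adjusted p = 0.00206 and 0.00047). In XZSW against CTL its change was 0.77 (edgeR adjusted p = 0.07265), or 0.60 with the GC split as a term (0.161). That rise passed under library-total scaling, with the 8 libraries and without XZSW1 (edgeR adjusted p = 0.0326, 0.043 and 0.0234). It also passed with DESeq2 (adjusted p = 0.0212) and with limma on log2(FPKM + 1) and log2(FPKM + 0.1) (0.0399 and 0.0338). Scnn1g, a subunit of the epithelial sodium channel, had a log2 change of -0.89 in HUA against CTL and 1.09 in XZSW against HUA (edgeR adjusted p = 0.00449 and 0.00354). The clock gene Per1 and the glucocorticoid-induced Tsc22d3 also fell in HUA against CTL (edgeR adjusted p = 0.0147 and 0.0203). With the GC split as a term Per1 had a log2 change of -0.92, as without it, and its adjusted p was 0.0531 (edgeR), while that of Tsc22d3 was -0.50, against -0.97 without the term (edgeR adjusted p = 0.197). Under library-total scaling both calls were lost, at -0.59 for Per1 and -0.65 for Tsc22d3 (edgeR adjusted p = 0.0714 and 0.0664). Without CTL2 or HUA3 the edgeR adjusted p was 0.0503 and 0.0529 for Per1 and 0.0637 and 0.0544 for Tsc22d3, and without CTL1 it was 0.0512 for Tsc22d3. Per1 was the gene that fell in XZSW against CTL, with a log2 change of -1.29 (edgeR adjusted p = 0.0177). That call was lost without CTL2 or XZSW3 (edgeR adjusted p = 0.0619 and 0.0564). In XZSW against HUA the Per1 change was -0.37 (edgeR adjusted p = 0.355).

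Ace, Mme and Enpep are brush border enzymes, and 10 brush border enzyme genes, Anpep among them, were counted beside them. In HUA against CTL none rose and 6 fell (median log2 change -1.14), in XZSW against HUA 4 rose and none fell (median 0.76), and none passed the edgeR test over 12 libraries in XZSW against CTL (median -0.18). These 10 genes summed to 2447 to 2956 CPM in XZSW, 1106 to 2387 CPM in HUA and 4030 to 4238 CPM in CTL. In this sum XZSW lay below CTL in every library, but Mep1a and Ggt1 were its largest parts. Their means were 1088.8 and 917.3 CPM in XZSW, against 1913.5 and 1434.0 CPM in CTL. By gene, the log2 change in XZSW against CTL was 0.01 to 0.30 for Dpp4, Dpep1, Xpnpep2 and Naalad2. For the rest of the 10 it ran from -0.88 (Mep1b) to -0.08 (Anpep). In XZSW against CTL Ggt1 had a log2 change of -0.64 (edgeR adjusted p = 0.0633), which passed without HUA2 (edgeR adjusted p = 0.0221), with the replicate block (0.046), with the 8 libraries of the comparison (0.0116) and with DESeq2 (0.0182). Mep1a, a subunit of meprin, had one of -0.81 in the same comparison (edgeR adjusted p = 0.0702), which passed in 4 of 21 alternatives, those without HUA1 and without HUA4 among them. Ggt1, gamma-glutamyltransferase, had a log2 change of -1.41 in HUA against CTL (edgeR adjusted p = 0.000257), and Treh, trehalase, one of -1.10 (edgeR adjusted p = 0.0018). Of 10 proximal tubule markers none rose and 8 fell in HUA against CTL, 7 rose and none fell in XZSW against HUA, and none passed in XZSW against CTL. Their summed level was 8866 to 12180 CPM in XZSW, 1987 to 5973 CPM in HUA and 9533 to 11850 CPM in CTL, so XZSW overlapped CTL in this sum. Slc34a1 was its largest part, with means of 4200.3 CPM in XZSW and 3601.0 CPM in CTL. By marker, the log2 change in XZSW against CTL was 0.16 to 0.59 for Slc34a1, Slc5a2 and Slc5a12. For the rest of the 10 markers it ran from -1.01 (Slc7a13) to -0.15 (Slc13a3). Of 8 tubular injury markers all rose in HUA against CTL and all fell in XZSW against HUA, and 3 rose in XZSW against CTL. Their summed level was 800.7 to 1049 CPM in XZSW, 3676 to 9772 CPM in HUA and 382.1 to 426.7 CPM in CTL. None of the injury and proximal tubule markers was at 0 in all libraries of a group, and the part of tubular injury or of the share of proximal tubule cells in the results for Agt, Ace and Enpep was not tested.

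Within HUA the 4 libraries differed in the same genes. HUA4 had the highest Agt, at 30.7 CPM, and the lowest Ren1, Mme and Enpep, at 6.33, 84.7 and 49.5 CPM, with the lowest proximal tubule sum, at 1987 CPM. HUA2 had the lowest Agt, at 5.25 CPM, and the highest Ren1, at 59.2 CPM, with the highest proximal tubule sum, at 5973 CPM, and the lowest injury sum, at 3676 CPM. HUA3 had the highest injury sum, at 9772 CPM, with Agt at 11.8 CPM and Ren1 at 51.0 CPM. It also had the lowest Ace and Agtr1a, at 83.0 and 9.43 CPM. HUA1 had the highest Ace, Agtr1a, Mme and Enpep of the 4. Its injury sum was 4905 CPM with Agt at 21.0 CPM, and the injury sum of HUA4 was 8870 CPM. These are single libraries and are given as values.

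Markers of other cells that hold parts of the cascade were counted as well. Of 10 smooth muscle and mesangial markers 5 rose and 1 fell in HUA against CTL, and 1 rose and 4 fell in XZSW against HUA; their summed level was 97.0 to 169.4 CPM in XZSW, 175.6 to 607.8 CPM in HUA and 116.2 to 146.8 CPM in CTL, with the highest in HUA3. Of 10 endothelial markers, relevant to Ace, 1 was lower in HUA than in CTL and 3 were higher in XZSW than in HUA, with sums of 248.9 to 421.0 CPM in XZSW, 128.5 to 356.2 CPM in HUA and 238.5 to 316.6 CPM in CTL. Of 8 podocyte markers 3 rose and 1 fell in HUA and again in XZSW, each against CTL, and none passed between XZSW and HUA. Of 8 macrophage markers 6 rose in HUA against CTL, 3 fell in XZSW against HUA and 2 rose in XZSW against CTL, and of 4 tested neutrophil markers 2 rose in HUA against CTL and none passed in the other comparisons. Macrophage markers summed to 73.9 to 232.2 CPM in XZSW, 286.6 to 368.5 CPM in HUA and 67.9 to 109.2 CPM in CTL. Cd14 was the largest part of the HUA sum, with means of 12.5 CPM in XZSW, 134.3 CPM in HUA and 5.34 CPM in CTL. Csf1r, another of these markers, had means of 49.3, 52.1 and 46.3 CPM in the same order. No marker of the adrenal cortex or of adipocytes, neighbours of the kidney, passed the edgeR test in any comparison, with 3 tested of each. Adipocyte markers, of a tissue that expresses Agt, summed to 0 to 92.3 CPM in XZSW, highest in XZSW1, to 0.64 to 2.33 CPM in HUA and to 0.0793 to 7.70 CPM in CTL, and the part of this tissue in the Agt result was not tested. Cyp11b1 and Cyp11b2 were not analysed here.

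For each of the 6 genes, the genes of most similar pattern were sought by Pearson r of log2 CPM over the 12 libraries, among 9333 genes with a mean of at least 2 FPKM. The libraries share groups and composition, so these values are descriptions without a p. Agt was most like Cp (ceruloplasmin, a copper-carrying acute phase protein) at 0.974, Ihh at 0.946 and Septin10 at 0.944. Ace was most like Pex3 (a peroxisome assembly factor) at 0.982, Pdk3 at 0.979 and Slc3a1 (a cystine transporter subunit of the proximal tubule) at 0.978. Enpep was most like Lrp2 (megalin, the endocytic receptor of the proximal tubule) at 0.973, Gk at 0.971 and Nr3c1 at 0.971. Ren1 was most like Plbd1 at 0.949, Cyp2d26 at 0.937 and Gatm (an enzyme of creatine synthesis) at 0.926. Agtr1a was most like Clec16a at 0.944, Kifbp at 0.929 and Eif2ak1 at 0.927, and Mme was most like Slc5a3 (a myo-inositol transporter) at 0.935, Gramd1b at 0.919 and Lima1 at 0.908. No gene was shared between these 6 sets of 3.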

How the data were processed

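Total RNA of mouse kidney was sequenced in strand-specific libraries after TRIzol extraction and an integrity check, per the labels' protocols. The submitters' processing notes name cutadapt 1.9, HISAT2 2.2.1 and the GRCm38 build; how counts were made is not given in the sources used here. Per the file headers, the authors deposited a raw count and an FPKM value for each gene in each library. The table's column letters C, N and M were matched through the sample descriptions to CTL, HUA and XZSW; N and M do not abbreviate the groups, and nothing else checks the match. Totals were 51.6 to 74.3 M counts per library.

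Counts were tested with edgeR 4.0.16 (R 4.3.3; filterByExpr, TMM, quasi-likelihood F-test fitted on the 12 libraries together), with Benjamini-Hochberg adjustment over 19772 genes and a threshold of 0.05. Standard errors come from the F statistic. Libraries were split at a GC slope of 0.15. Alternatives used limma 3.58.1, DESeq2 1.42.0 and 12 fits leaving out 1 library each. The edgeR step was tested on simulated data. Named genes were the 6, all listed pathway genes, up to 4 of each other list with the smallest p in HUA against CTL, and the 3 most alike genes of each member; not all are printed, and 1 listed pathway gene is counted but not reported here by name. Genes and lists were chosen with earlier results of these data known. Python 3.11.15, pandas 2.3.3, numpy 2.4.6 and matplotlib 3.10.9 were used.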

Additional observations from a re-analysis of the deposited data

Results flagged for a closer look

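Of 57 groups of 4 libraries (the 6 genes and 13 tested pathway genes in 3 groups), 3 held a library far from the other 3 by Dixon's criterion, and chance flags about 1 in 20. Agtr1a stood at 17.99 CPM in XZSW1, against 24.4 to 25.6 CPM in the other XZSW libraries; XZSW1 also held the highest adipocyte marker sum. Prep stood at 61.66 CPM in HUA3, against 34.9 to 39.0 CPM in the other HUA libraries. Atp6ap2 stood at 98.89 CPM in XZSW2, against 84.4 to 85.0 CPM in the other XZSW libraries.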

How the results depend on the processing

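Agt and Ace kept direction and call in HUA against CTL, as did Agt in XZSW against HUA and Ace in XZSW against CTL, in all 21 alternatives, with log2 changes of 2.56 to 4.17, -1.48 to -1.03, -4.11 to -2.41 and -1.27 to -0.95; the lowest Agt sizes came from limma on log2(FPKM + 1), whose pseudocount shrinks low genes. The sign of Mme in HUA against CTL turned with library totals (0.161), limma on log2(FPKM + 1) and log2(FPKM + 0.1) (0.0668 and 0.064) and the GC split term (0.0921), and leaving out 1 library gave -0.528 to 0.0706. Ace in XZSW against HUA turned with library totals (-0.0173) and ranged from -0.000745 to 0.294 over leave-one-out. Leave-one-out ranges that crossed 0 were -0.237 to 0.523 for Agt and -0.0399 to 0.185 for Agtr1a in XZSW against CTL, and -0.487 to 0.111 for Mme in XZSW against HUA. The cause was not tested.

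Genes called in XZSW against CTL, 987 in the edgeR fit, were 529 without a filter, 2468 with DESeq2, 1744 with limma on log2(FPKM + 0.1), 1750 with the GC split term, 2625 with the 8 libraries of the comparison and 133 to 1596 over leave-one-out (133 without CTL2, 1596 without HUA1). In XZSW against HUA, 3051 genes were called, 1439 with 8 libraries and 1711 to 3817 over leave-one-out. Pathway genes called in HUA against CTL were 7, and 3 with the GC split term. In XZSW against HUA they were 6, and 2 with 8 libraries. In XZSW against CTL 1 was called (Nln), and 0 with library totals or no filter, 2 with 8 libraries and 0 to 1 over leave-one-out. The cause of these differences was not tested. Of the 6 genes, 1 to 3 were called in XZSW against HUA over leave-one-out. The KEGG list was added after seeing the data.

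Same-numbered libraries deviated together only weakly (correlations -0.0457 to 0.174, most of them under 0.1). Libraries of different number were not compared in this way, so whether same-numbered libraries share more than a number was not tested. With the replicate block 5466, 3076 and 813 genes were called for HUA against CTL, for XZSW against HUA and for XZSW against CTL. Under this block 2 of the 6 genes were called in XZSW against HUA, Enpep being added at 0.64 (edgeR adjusted p = 0.049), and 0 pathway genes in XZSW against CTL. Thop1 was called with the block in HUA against CTL and in XZSW against HUA (0.57 and -0.57).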
